A study of Stipitochalara longipes with 7 samples.

Results

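The 100 gene models described here are those whose reads varied least among 7 RNA libraries of the ascomycete Stipitochalara longipes growing on pine needles. For each of 19765 gene models, the total gene reads were divided by a size factor of the library, giving a size-scaled read number called x. The size factor is the median, over the 8859 gene models with reads in all 7 libraries, of a library's reads divided by the geometric mean over libraries. A mean x of at least 500 was reached by 3740 gene models, and 574 of these had a highest x less than 2 times their lowest. The 100 with the smallest ratio of highest to lowest x are the members. All 100 also passed the low-count filter of the test across genes. Because measured reads of all 7 libraries chose them, their small ratios are a description and not a finding.

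The fungus, which the labels also name Chalara longipesis, grew alone in sealed microcosms of 11 g of dry needles of Scots pine (Pinus sylvestris) on 85 g of sand. Every microcosm was sterilised by gamma radiation, inoculated with needles colonised in advance for 2 months, given 20 ml of 100 mM NH4Cl and kept at 20 °C. There were 2 libraries from the harvest at 2 months, 2 from that at 5 months and 3 from that at 10 months, described as biological replicates, and the labels name no strain, mutation or treatment that differs between harvests. The only difference between groups in the labels is the time of growth, so harvest age cannot be told apart from anything else that changed between harvests.

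Steadily expressed genes have a practical use in expression work. Relative measurements need a reference, and quantitative PCR usually takes it from genes of basic cell functions such as translation, the cytoskeleton or protein turnover, which most cells keep switched on. Size factors used for sequencing make a related assumption, namely that most genes do not change between libraries. The files pair the JGI (Joint Genome Institute) protein identifiers with no gene name, product or sequence, so which functions the members have is not known here, and they are given by identifier and by the length that their reads and RPKM imply. RPKM is a read number scaled to the length of the gene model and to the total reads of its library.

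The libraries were far from alike, which is the background against which steadiness has to be read. They held 20009777 to 52554481 total gene reads, and 8 very abundant gene models (each averaging 1% of a library or more, a limit set with the values known) took 30.0% to 93.3% of them. Size factors ran from 0.294 in 2-month replicate 2 to 1.87 in 5-month replicate 2, a 6.36-fold range that was 2.39-fold with the former left out. The 2-month replicate 2 library stood apart with 10139 gene models detected, and 10-month replicate 3 was next with 13405, against 15115 to 17076 in the others. Detection also depends on the reads left outside the 8 abundant gene models. These were 2938002 in 2-month replicate 2, 11345883 in 10-month replicate 3 and 6880842 to 16923473 in the others. How far such depth accounts for the numbers detected was not tested. With messenger RNA measured in bulk, less RNA per cell and fewer living cells cannot be told apart.

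Gene model 487860 (2920 bp) had the smallest ratio of all. Listed by replicate number, its x was 1649 and 1720 in the 2-month pair, 1702 and 1460.0 in the 5-month pair and 1407, 1589.6 and 1571 in the 10-month trio; the same order is used throughout. Its highest library was thus 1.22 times its lowest, and the values of each harvest overlapped those of the 5-month harvest. Behind these values were 506 to 2733 reads.

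Gene model 555215 (1307 bp) came next at a ratio of 1.23. It had an x of 703 and 571 in the 2-month pair, 594 and 675 in the 5-month pair and 573, 629 and 575 in the 10-month trio, so its extremes were the 2 libraries of one harvest. Gene model 486867 (1798 bp) showed the same feature, with 595 and 483 in the 2-month pair, 492 and 518 in the 5-month pair and 557, 593 and 583 in the 10-month trio. For both gene models 2-month replicate 1 was highest and 2-month replicate 2 lowest.

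Gene model 547636 (1946 bp) was steady at a higher x, with 2882 and 2726 in the 2-month pair, 2776 and 2540 in the 5-month pair and 2529, 3170 and 2570 in the 10-month trio (ratio 1.254). Gene model 388307 (2880 bp) had 1463 and 1288 in the 2-month pair, 1544 and 1377 in the 5-month pair and 1453, 1581 and 1617 in the 10-month trio (ratio 1.26). In both, the ranges of the 3 harvests overlapped each other. Gene model 438495 (1845 bp) had the lowest mean x of the members, 500.2, with 438 and 530 in the 2-month pair, 547 and 521 in the 5-month pair and 457, 550 and 459 in the 10-month trio (ratio 1.26).

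Gene model 365558 (1326 bp) stood at 895 and 1026 in the 2-month pair, 964 and 871 in the 5-month pair and 1104, 951 and 1002 in the 10-month trio, with a ratio of 1.27. Gene model 430195 (1287 bp) stood at 5550 and 5166 in the 2-month pair, 4741 and 4405 in the 5-month pair and 5621, 5486 and 5384 in the 10-month trio, with a ratio of 1.28. In 430195 both 5-month libraries were below the other 5 libraries, and the harvest means were 4573 ± 237 (5 months, SD, n = 2), 5358 ± 271 (2 months, SD, n = 2) and 5497 ± 119 (10 months, SD, n = 3). Steadiness by the ratio of extremes therefore leaves room for a shift of one harvest.

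**Figure D1:**
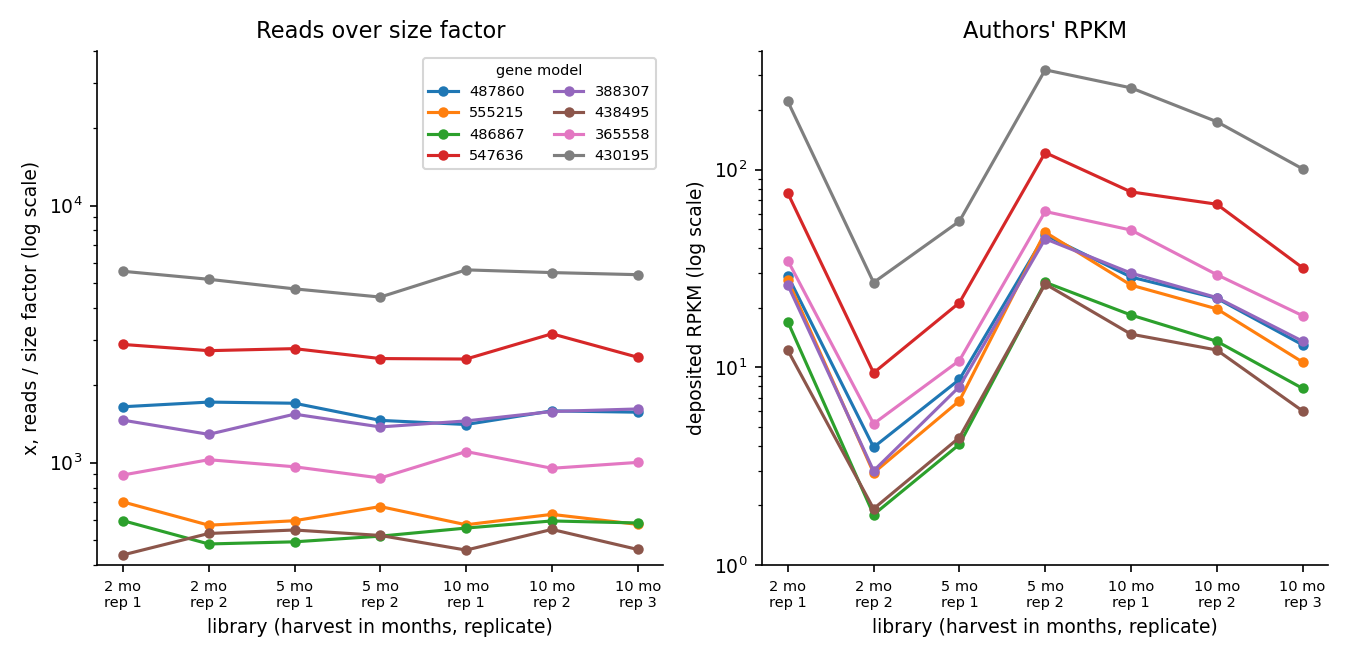
Values of the 8 gene models with the smallest ratios in each library, as x (left) and as the RPKM deposited by the authors (right), both on log axes of different span; lines join values of one gene model and give no order to replicates. The same reads are nearly flat as x, with ratios of 1.22 to 1.28, and run from lowest in 2-month replicate 2 to highest in 5-month replicate 2 as RPKM.

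At the edge of the list the values hardly differed. Gene model 382056 (5589 bp, rank 99) had a ratio of 1.525 and 468653 (2685 bp, rank 100) of 1.527, while the first gene models outside, 438586 (1908 bp) and 482984 (2645 bp), had ratios of 1.527 and 1.529. The x of 468653 was 1103 and 1343 in the 2-month pair, 1080 and 1002 in the 5-month pair and 1121, 1105 and 879 in the 10-month trio. That of 438586 was 501 and 704 in the 2-month pair, 732 and 561 in the 5-month pair and 479, 686 and 650 in the 10-month trio.

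Over the 100 members the ratio had a median of 1.43 and a range of 1.22 to 1.53, and 81 members were under 1.5. Over the gene models with a mean x of at least 500 and reads in every library (3699), the median was 3.13 and the highest 5710, and a further 41 had an x of 0 in some library. The coefficient of variation of x over the 7 libraries had a median of 12.9% in the members (7.44% to 18.4%) and of 39.5% in all 3740. Counting error, taken as Poisson error on the reads, accounts for a coefficient of variation of 3.39% in the median member. In 97 of the 100 members the observed coefficient was more than 2 times the counting part. Counting was coarsest in 2-month replicate 2, where members had 109 to 2036 reads and the member with fewest carried a counting error of 9.58%, against 3.40% to 5.29% for the member with fewest reads in the other libraries. The edgeR fit across 14753 gene models gave the members a biological coefficient of variation of 28.1% to 32.5%, against a median of 65.7% over all. That fit pulls each estimate towards a common trend, and its values for the members lie above their own coefficients of variation.

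**Figure D2:**
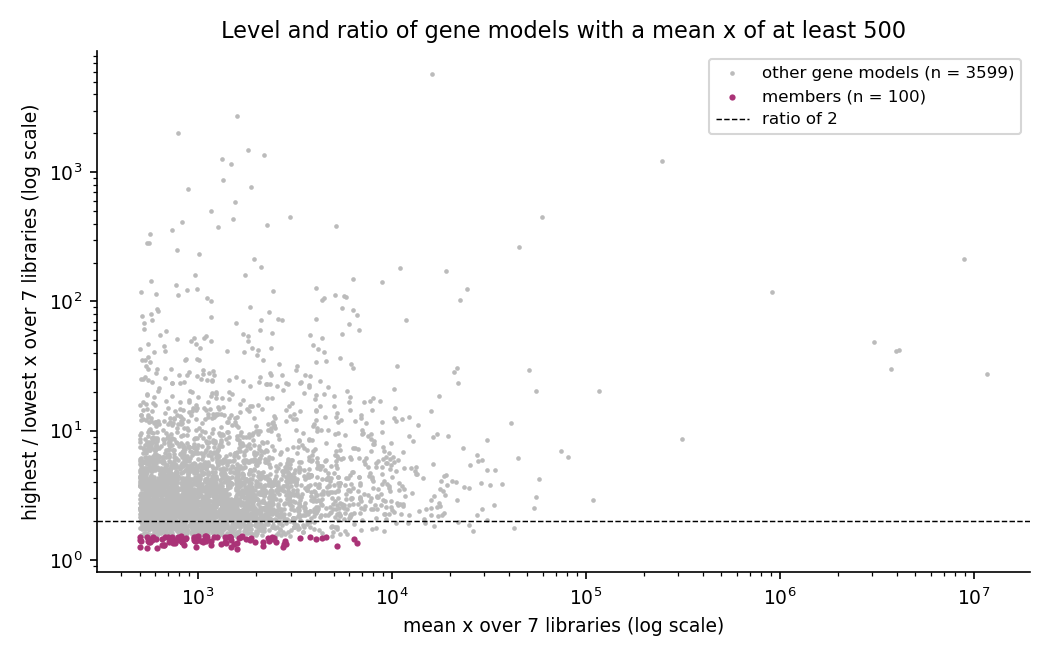
Ratio of highest to lowest x against mean x, both on log axes, for gene models with a mean x of at least 500 and reads in all 7 libraries (41 with an x of 0 in some library are not drawn). The members form the lower edge of the cloud at ratios up to 1.53 and reach a mean x of 6619, while the gene model with the highest mean x, at the far right, has a ratio of 27.6.

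By mean x, the members were not among the most abundant gene models. The highest ranked of them by mean x stood at place 223 of 3740, and 45 members were above the median of the 3740. Their mean x had a median of 1069, against 1106 over all 3740. The 5 with the highest mean x were 345571 (6619), 364421 (6404), 430195 (5193), 491120 (4594) and 539318 (4381). Per kilobase of length, which allows levels to be compared between genes, 490875 (822 bp) was highest with a mean x of 4915 per kb, followed by 364421 (1450 bp) with 4417 and 430195 with 4035. The lowest, 382056, had 146 per kb, so members spanned a 33.8-fold range of level. The x of 490875 was 4605 and 3191 in the 2-month pair, 3987 and 3818 in the 5-month pair and 4302, 4247 and 4129 in the 10-month trio. Its lowest value was in 2-month replicate 2, and the other 6 libraries lay between 3818 and 4605.

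Gene model 345571 (2865 bp) had an x of 7172 and 6920 in the 2-month pair, 7280 and 5347 in the 5-month pair and 6593, 6313 and 6711 in the 10-month trio. Gene model 364421 had 6482 and 5098 in the 2-month pair, 6453 and 5059 in the 5-month pair and 7161, 7168 and 7408 in the 10-month trio. In 345571 the highest and the lowest value were both in the 5-month pair, whereas in 364421 all 3 libraries of 10 months were above the other 4. Gene models 491120 (1536 bp) and 539318 (1359 bp) differed within harvests, the former with 5131 and 3553 at 5 months and the latter with 5546 and 3909 at 2 months.

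Length and mapping were not used by the rule. Implied lengths of the members ran from 784 bp (359295) to 5589 bp (382056) with a median of 1847 bp, against a median of 1614 bp over all 3740. Under 1000 bp were 5 of the 100 members and 19.9% of the 3740, and at 3000 bp or more 10 and 12.9%. No test over gene models was made, so these are descriptions. The median length of the list was 1510 bp when it was rebuilt without 2-month replicate 1 and 1814 to 1868 bp without any other single library. Without that library the median was thus below that of all 3740, a set made on all 7 libraries. The median over the gene models that reach the minimum mean x without that library was not computed. Gene model 359295, the shortest, had an x of 1724 and 1332 in the 2-month pair, 1347 and 1726 in the 5-month pair and 1765, 1356 and 1503 in the 10-month trio, with harvest means of 1528, 1536 and 1541 that differed by less than the spread within each harvest.

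Reads of 76 members were all unique, as in 80.7% of the 3740 gene models. Only 371709 (2254 bp, 93.0% unique) and 436271 (2820 bp, 98.9% unique) were below 99%, a share of 2.75% among all 3740. The 830 reads of 371709 that were not unique could belong to a similar copy, so its x is uncertain to that extent. It was 1426 and 1234 in the 2-month pair, 1770 and 1393 in the 5-month pair and 1169, 1688 and 1596 in the 10-month trio. When the list was rebuilt from unique reads, 98 of the 100 members returned.

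Among themselves the members kept their order. Spearman correlations of x over the 100 members ranged from 0.930 to 0.969 across the 21 pairs of libraries, against 0.479 to 0.929 over all 3740 gene models. High values follow in part from the rule, since gene models that vary little and differ in level must keep their order. Around their own means the members did not move as one. The size factors remove a shift shared by most gene models, so this follows in part from the scaling. Correlations over 7 libraries are also imprecise, and no such values were computed over all 3740 gene models. Over the 4950 pairs of members, the median Pearson correlation of log2 deviations across the 7 libraries was 0.08, and 117 pairs were above 0.8 while 73 were below -0.8. The first principal component of these deviations held 28.6% of their variance and set 2-month replicate 2 and 5-month replicate 1 against the 3 libraries of 10 months. The second held 22.5% and set 2-month replicates 1 and 2 against the 5-month libraries.

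Which library was extreme differed from member to member. The highest x fell in 10-month replicate 3 for 21 members, in 2-month replicates 1 and 2 for 20 each and in 5-month replicate 1 for 19. It fell in 5-month replicate 2 for only 2. Of all 3740 gene models, 23.7%, 19.8%, 16.8%, 11.8% and 4.68% were highest in these libraries, in the same order. The lowest x fell most often in 5-month replicate 2 (24 members) and 2-month replicate 2 (21 members). Over all 3740 gene models these 2 libraries were also lowest most often, in 21.1% and 28.7%. Relative to its own mean, the median member stood at 0.922 in 5-month replicate 2 and at 0.979 to 1.05 in the other libraries.

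**Figure D3:**
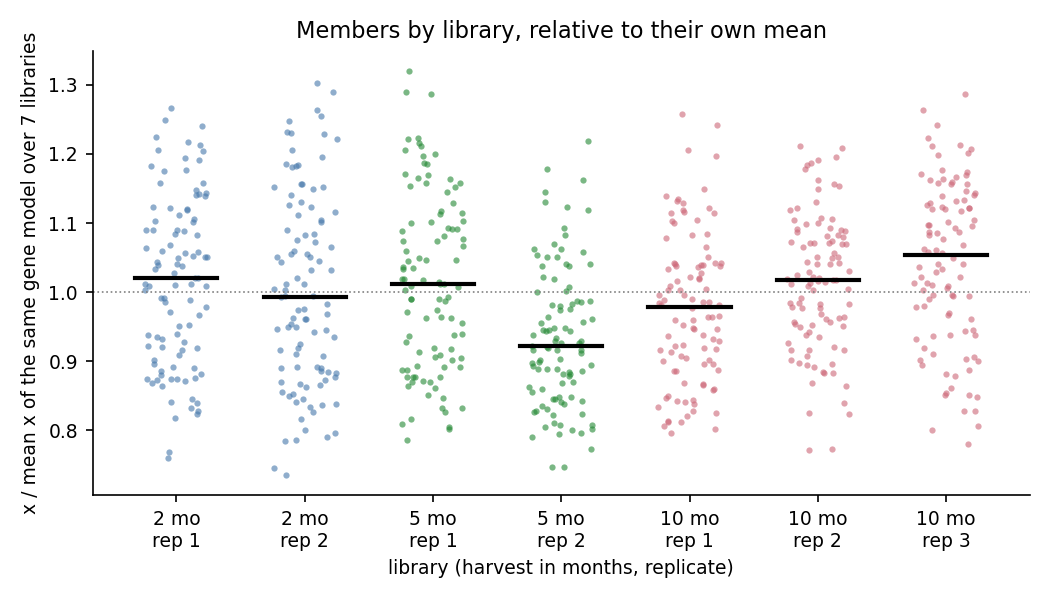
Each point is one of the 100 members in one library, as x divided by the mean x of that gene model over the 7 libraries; black bars are medians over members and colours mark the 2, 5 and 10-month harvests. Points lie between 0.735 and 1.32, and 5-month replicate 2 has the lowest median, 0.922.

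Summed over the members, x was 153551 and 145792 in the 2-month pair, 151012 and 136693 in the 5-month pair and 146627, 152610 and 156068 in the 10-month trio. The libraries of the 3 harvests overlapped, and the highest sum was 1.14 times the lowest. As a share of all reads the same members ran from 0.0976% in 2-month replicate 2 to 1.28% in 5-month replicate 2, a 13.1-fold range. With 2-month replicate 2 left out the range was 5.69-fold. As a share of reads outside the 8 abundant gene models they took 1.495% and 1.46% in the 2-month pair, 1.72% and 1.83% in the 5-month pair and 1.32%, 1.29% and 1.31% in the 10-month trio. These shares did not overlap between harvests, with means of 1.48% ± 0.0249 (SD, n = 2), 1.77% ± 0.0771 (SD, n = 2) and 1.31% ± 0.0141 (SD, n = 3). Such a share also depends on how the reads outside the 8 gene models compare with the size factor, and the summed x of the members overlapped. The non-overlap is therefore not read as a change of the members, and shares of other gene models were not computed. No test is given for the members' shares, because the reads of the members chose the members.

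The deposited RPKM values of the members were not steady. The median member RPKM was 28.6 and 3.78 in the 2-month pair, 8.62 and 49.8 in the 5-month pair and 33.1, 23.5 and 14.8 in the 10-month trio. Each member's highest RPKM was 9.28 to 19.8 times its lowest, with a median of 13.1. Over the 3699 gene models with a mean x of at least 500 and reads in every library, the median was 17.1. The RPKM of a gene model with a flat x follows the size factor over the library total, so the members' spread follows largely from the scaling. For 487860 the RPKM was 29.0 and 3.94 in the 2-month pair, 8.68 and 46.8 in the 5-month pair and 28.6, 22.4 and 13.0 in the 10-month trio. The order of the libraries in the median member RPKM was the reverse of their order in the share taken by the 8 abundant gene models. The median ratio was 5.79 when 2-month replicate 2 was left out, 8.94 when 5-month replicate 2 was, and 13.1 for each of the other libraries.

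With the library total as the scaling, the rule chose a single gene model, and it was not a member. That gene model, 391853 (1039 bp), has the highest mean x of all, and its RPKM ran from 138637 to 273606, a ratio of 1.97. Its x ranged 27.6-fold.

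By harvest, the members' mean x differed little, as the rule requires. The ratio of the highest to the lowest harvest mean had a median of 1.19 and ran from 1.01 to 1.46, against a median of 1.92 over all 3740 gene models. The harvest with the highest mean was that of 2 months for 37 members, of 5 months for 25 and of 10 months for 38, against 32.7%, 20.4% and 47.0% of the 3740. Within harvests, the median fold between a member's highest and lowest library was 1.16 (2 months), 1.13 (5 months) and 1.20 (10 months). Over the 3699 gene models with a mean x of at least 500 and reads in every library these values were 1.63, 1.24 and 1.45.

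In the edgeR quasi-likelihood fit, 0 of the 100 members passed an adjusted p of 0.05 from 2 to 5 months, where 1.37% of all tested gene models passed. The number was also 0 from 2 to 10 months (2.35% of all), from 5 to 10 months (1.84% of all) and for any difference among the harvests (4.22% of all). At an unadjusted edgeR p under 0.05, 1 member passed from 5 to 10 months, where 2042 of the 14753 gene models did. In the other tests 0 members passed, against 2401 (2 to 5 months), 2856 (2 to 10 months) and 2946 (any difference) of the 14753. DESeq2 gave 0 members in each, adjusted or not. From 2 to 5, 2 to 10, 5 to 10 months and for any difference, it called 1252, 1788, 839 and 2074 of all gene models. Unadjusted, 3198, 3736, 2420 and 4050 passed in DESeq2. The rule used no harvest labels, but it bounded every difference among the 7 libraries on the same reads, so nothing is read from the counts. Values of x did not overlap between the harvests in 38 members for 2 against 5 months, 27 for 2 against 10 months and 38 for 5 against 10 months. Over all tested gene models this held for 49.5%, 38.5% and 49.8%.

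The members with the largest and smallest fitted fold change of each comparison are described next. They were picked as extremes of a list whose spread the rule had bounded. Gaps between harvests in these members follow in part from that picking and are not read as shifts of a harvest. The fitted fold changes use TMM, another scaling of the libraries, and x uses median-of-ratios size factors, so the 2 can differ in size. Gene model 556805 (1458 bp) had an x of 1778 and 1424 in the 2-month pair, 1351 and 1338 in the 5-month pair and 1816, 2040 and 2040 in the 10-month trio. Its 10-month libraries were all above its 5-month libraries, with an edgeR log2 fold change of 0.71 (SE 0.30). That fold change was 0.55 with median-of-ratios scaling and ranged from 0.14 to 0.76 over the other settings. Gene model 360358 (1960 bp) had 840.5 and 816 in the 2-month pair, 832 and 964 in the 5-month pair and 1241, 1183 and 1122 in the 10-month trio. For it the 10 against 2 month log2 fold change was 0.50 (SE 0.29), and its 10-month libraries were above all 4 others.

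Gene model 61926 (2394 bp) had 1221 and 1009 in the 2-month pair, 808 and 810 in the 5-month pair and 968, 1041 and 987 in the 10-month trio. Its 5-month libraries were the lowest, with a 5 against 2 month log2 fold change of -0.64 (SE 0.32) under TMM. The same fold change was -0.46 with median-of-ratios scaling and 0.34 with library size alone. Gene model 382056 had the highest value of that comparison, 0.26 (SE 0.33) under TMM and 0.42 with median-of-ratios scaling. Its x was 625 and 724 at 2 months and 953 and 855 at 5 months. Gene model 440390 (2982 bp) was highest at 5 months, with 918 and 829, against 655, 643 and 627 in the 10-month trio. Its 10 against 5 month log2 fold change was -0.28 (SE 0.30) under TMM and -0.445 with median-of-ratios scaling. Gene model 373798 (1951 bp) had 653 and 673 at 2 months and 468, 452 and 580.4 at 10 months, a log2 fold change of -0.42 (SE 0.32). None of these 6 was called in any setting run.

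The median fold change of the members depended on the scaling. For 5 against 2, 10 against 2 and 10 against 5 months it was -0.23, -0.02 and 0.25 (log2) with TMM scaling, and -0.06, -0.01 and 0.09 with median-of-ratios scaling. With library size alone it was 0.79, 0.49 and -0.29. The medians over all tested gene models were 0.10, 0.20 and -0.06 with TMM, 0.27, 0.21 and -0.22 with median-of-ratios and 1.11, 0.60 and -0.62 with library size. In all 3 scalings the median member stood below the median of all tested gene models for 5 against 2 and 10 against 2 months. For 10 against 5 months the median member stood above it. A change of scaling shifts the fold changes of all gene models nearly alike, so the 3 scalings are not independent readings of this order. The rule kept the members' x nearly flat under median-of-ratios factors, so their medians with that scaling are small by the choice. The order therefore follows largely from the rule and is not read as a property of the members. The tested gene models were also not limited to the minimum mean x of the members.

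Scaling the libraries by the summed reads of the members gave 211, 385 and 208 calls for the 3 comparisons. TMM gave 202, 346 and 272, and median-of-ratios factors 186, 371 and 229. The members were chosen for a flat x under median-of-ratios factors, so scaling by their sum comes close to those factors by the choice. It is not a separate reading. For 5 against 2 months 135 gene models rose and 76 fell, against 92 rises and 110 falls with TMM, 108 and 78 with median-of-ratios factors and 864 and 388 with DESeq2. For 10 against 2 months the balance was nearly the same, with 271 rises and 114 falls against 242 and 104 with TMM. Median-of-ratios factors gave 266 and 105. For 10 against 5 months 160 rose and 48 fell, against 241 and 31 with TMM, 186 and 43 with median-of-ratios factors and 582 and 257 with DESeq2. Which of these scalings is closer to RNA amounts per cell was not tested.

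Because the members were chosen on all 7 libraries, their steadiness was looked at in a library not used for the choice. The rule was applied to 6 libraries at a time, and the 100 gene models it chose were read in the library left out, against their mean over the other 6. In total 569 of 700 readings (81.3%) were within 1.5-fold of that mean, against 59.3% of readings over all gene models with a mean x of at least 500 in the same 6 libraries. Within 2-fold were 659 (94.1%), against 79.7%. The readings of one library share its size factor and the lists overlap, so no p is given.

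The share depended on the library. Within 1.5-fold were 92 and 87 of 100 for the 5-month pair, against 57.5% and 57.1% of all such gene models. The 10-month trio had 91, 91 and 87, against 70.4%, 75.1% and 59.1%. The 2-month pair had 62 and 59, against 52.9% and 45.3%. Both 2-month libraries thus held many gene models that were steady in the other 6 and not there, not replicate 2 alone.

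**Figure D4:**
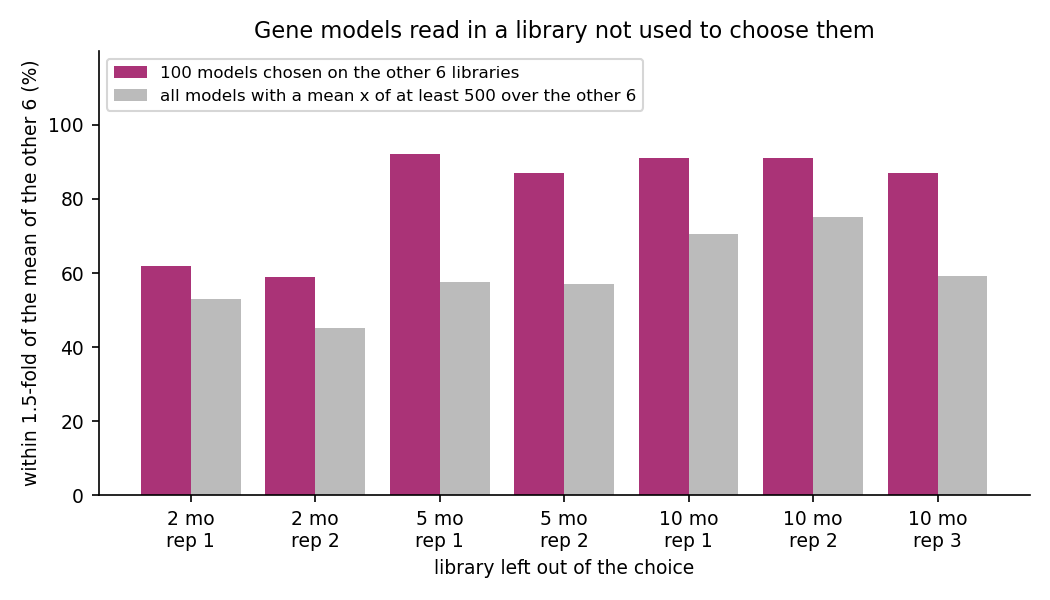
Percentage of gene models whose x in the library left out was within 1.5-fold of their mean over the other 6 libraries, for the 100 gene models chosen on those 6 (purple) and for all with a mean x of at least 500 in them (grey). The 5 later libraries are at 87% to 92% for the chosen gene models and the 2-month libraries at 62% and 59%.

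Single gene models, picked after their values were seen as the lowest or highest reading of a library, show how wide a gap one library can hold. Gene model 346894 (1017 bp) had an x of 542 to 687 in the other 6 libraries and 47.6, from 14 reads, in 2-month replicate 2. Gene model 442552 (2136 bp) had 2205 to 3174 in the other 6 and 177, from 168 reads, in 10-month replicate 3. These readings are far beyond counting error.

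In the other direction, gene model 410451 (1285 bp) had 1667 to 2341 in the other 6 libraries and 4965 in 5-month replicate 1. Gene model 429073 (972 bp) had 573 to 792 in the other 6 and 1831 in 2-month replicate 1. Each of these 4 would have been listed as steady had that library been missing, and none is a member.

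The list itself changed accordingly. Without 5-month replicate 1 or 2, 75 and 69 of the 100 members were chosen again, and without 10-month replicates 1, 2 and 3, 80, 81 and 70. Without 2-month replicates 1 and 2 the numbers were 47 and 37, and without both 2-month replicate 2 and 10-month replicate 3, 28. In all 7 lists that leave out a library were 21 members, among them 487860, 555215, 547636, 388307 and 365558 of the 8 described first. These 21 were also in each of 4 further lists, made from unique reads, with TMM scaling, by the coefficient of variation and with a minimum mean x of 250. Of the other 3 described first, 430195 was in 6, 486867 in 5 and 438495 in 3 of the lists that leave out a library. Gene models 386866 (1642 bp) and 556805, at ranks 97 and 98, were in 0 of the 7.

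**Figure D5:**
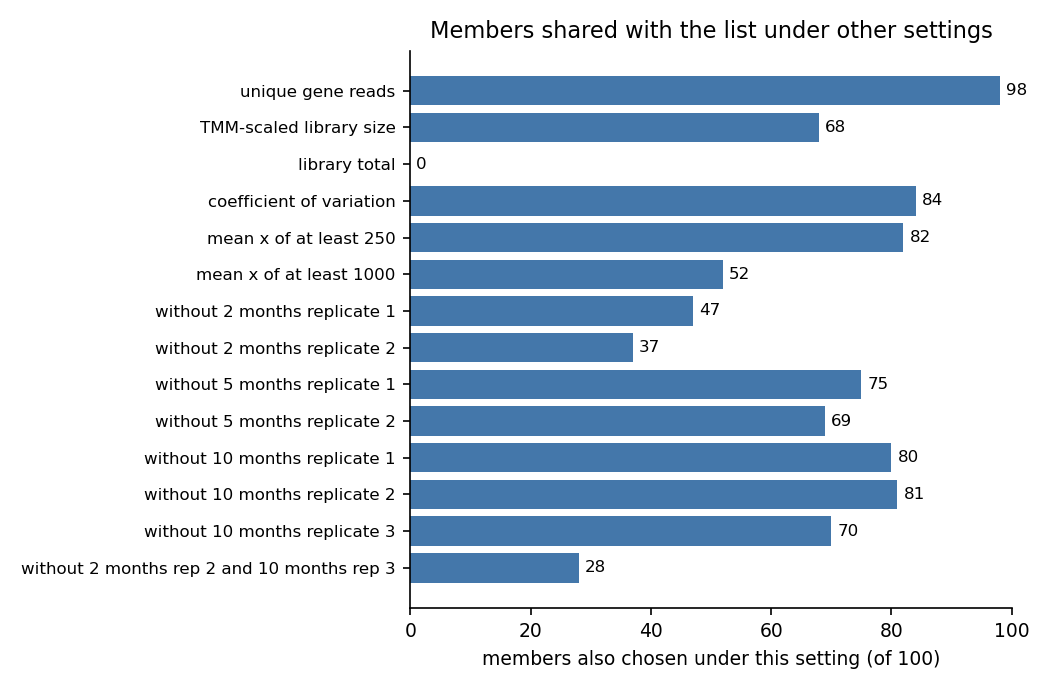
Number of the 100 members that the rule chose again when one setting was changed. Unique reads kept 98, other scalings 68 (TMM) and 0 (library total), and leaving out a library kept 37 to 81.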

How the data were processed

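Per the file headers, each of the 7 deposited tables gives, for the same gene models, raw counts of reads (unique ones and all) and the RPKM computed by the authors. The aligner, counter, genome build, strand handling and filters were not given in the sources used here. The RPKM deposited by the authors divides total gene reads by length and library total; implied lengths differed between libraries by at most 0.00448 bp.

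Size factors, x, the list and the readings in left-out libraries were computed with Python 3.11.15 and pandas 2.3.3. Counts were tested with edgeR 4.0.16 (R 4.3.3): filterByExpr defaults, TMM, the 3 harvests as groups, quasi-likelihood tests, Benjamini-Hochberg adjustment over 14753 gene models. The spread was estimated jointly from the 7 libraries. DESeq2 1.42.0 was an alternative. SE is the log2 fold change over the square root of F. The scripts were tested on simulated data.

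Gene models were named by rank: the 8 smallest ratios, the highest mean x, the highest x per kb, the longest and shortest, the lowest unique shares, the edge of the list, and the largest and smallest fold change of each comparison. Readings in left-out libraries are exceptions and are marked. The members and these choices were made with earlier results of these data known. The p-values measure the spread between libraries called biological replicates. Overlapping or antisense gene models cannot be told apart in these tables.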

Additional observations from a re-analysis of the deposited data

How the results depend on the processing

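In every setting run, 0 members were called in each comparison, including settings that leave 1 library in a harvest. Counts of all called gene models, for 5 against 2, 10 against 2, 10 against 5 months and any harvest, were 202, 346, 272 and 623. They were 0, 0, 0 and 1 with library size alone (584, 373, 85 and 292 by edgeR when p is left unadjusted, under 0.05). They were 583, 927, 697 and 1467 without a low-count filter, and 1252, 1788, 839 and 2074 with DESeq2. Without 1 library they ranged from 0 to 3905, 33 to 4943, 0 to 1475 and 80 to 5422, and without both 2-month replicate 2 and 10-month replicate 3, an alternative chosen after seeing the data, they were 2994, 2236, 2638 and 4429. The lone library of a harvest is then assumed to vary like the others. The list kept 100 members by definition, 0 with the library total, 52 with a minimum mean x of 1000, 28 without both libraries and 37 to 81 without 1 library. The median RPKM ratio of members was 5.79 to 13.1 without 1 library. Readings within 1.5-fold in left-out libraries numbered 569, and 559 with TMM. The replicate block gave 113, 80, 117 and 281 calls, 0 of them members. Same-numbered libraries deviated from their harvest means with correlations of -0.22 to 0.04, and differently numbered ones with -0.13 to 0.22. In a harvest of 2 libraries the deviations are mirror images, so these correlations cannot decide whether the numbers are pairs. The libraries are described as biological replicates, and the numbers were not treated as pairs. For all shifts between settings the cause was not tested. Reads per member limit the precision most in 2-month replicate 2.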
